A study of Mus musculus with 21 samples.

Results

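The transcription factor MYC and a set of nucleolar factors of ribosome biogenesis were followed in mouse CD8+ T cells kept in 3 culture media. The 38 genes were listed by symbol and not by a cut on measured values, but with earlier results of these data known. For each gene 1 transcript cluster of the array was taken. Measured rows were found for 36 of the 38, out of 19505 genes in all; *Nop56* and *Gnl3* are not analysed here.

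Splenic T cells of wildtype mice received beads against CD3 and CD28 as the activating stimulus, and the CD8+ fraction was purified anew on magnetic columns (MACS) after 48 h. All cells grew in complete RPMI with 2-mercaptoethanol (2-ME). The controls had fresh medium, and the other groups had the sterile-filtered supernatant of WEHI-3B cells or that of dendritic cells derived from bone marrow (BMDC, here DC). The WEHI-3B line comes from a myelomonocytic leukaemia of a mouse and represents acute myeloid leukaemia (AML) in this design, so the AML-conditioned medium stands for 1 cell line and not for the disease. Each medium had 7 arrays, labelled as biological replicates 1 to 7, and the ages of the mice are not given in the sources used here. The description field of the labels names a reticular cell, against all other fields, which name CD8+ T cells; the grouping rests on the latter.

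MYC binds DNA together with its partner MAX at E-box motifs and drives growth genes, among them many that make ribosomes. In the nucleolus, RNA polymerase I transcribes ribosomal DNA into a long precursor, the small subunit processome and small nucleolar RNPs (snoRNPs) cut and modify it, and further factors build the large subunit. A T cell that is activated through its receptor induces MYC and enlarges its nucleolus as it prepares to divide.

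The hexamer CACGTG, the canonical E-box, was searched in promoter windows of RefSeq (build GRCm38.p6) that run from 250 bases before to 50 bases after each transcription start. The motif is its own reverse complement, so both strands are read at once. Windows matched 31 of the 38 listed genes, without *Myc*, *Npm1*, *Rrs1*, *Tcof1*, *Rrp12*, *Fbl* and *Bop1*. The hexamer stood in the windows of 6 of the 31 genes (19.4%), and in those of 8.09% of the 27025 genes with a window. The median GC content was 59.7% in the members' windows and 52.7% in all windows, and its part in this difference was not tested. These 6 stretches are shown because they hold the letters that MYC and MAX are known to bind. They are printed 5′ to 3′ on the strand of the gene, at most 30 bases long and shorter where the window ends, with the hexamer in capitals.
Nop2 (chr6:125131811-125131840, plus strand): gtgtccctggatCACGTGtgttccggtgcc
Pes1 (chr11:3963965-3963994, plus strand): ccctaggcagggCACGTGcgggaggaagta
Utp4 (chr8:106893643-106893672, plus strand): tgcgcaagcgcgCACGTGgggccggggcgg
Wdr43 (chr17:71616220-71616249, plus strand): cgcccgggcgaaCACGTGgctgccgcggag
Mybbp1a (chr11:72441355-72441376, plus strand): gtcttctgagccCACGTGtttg
Utp20 (chr10:88826765-88826789, minus strand): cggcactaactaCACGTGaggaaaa
Counted from 1 at the first base of the gene, the hexamer began at 3 in *Pes1*, 16 in *Utp4*, 18 in *Wdr43*, 38 in *Utp20* and 41 in *Mybbp1a*. In *Nop2* it began at -60, upstream of the start. A match is a description of the sequence and does not show that a factor binds there.

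Expression is given on the log2 scale of the deposited values, where a difference of 1 is a doubling, and "called" means an adjusted p under 0.05 in the limma fit over all genes. The median standard error of a difference between AML-conditioned and fresh medium was 0.14 for the members and 0.09 for all genes, and the 7 arrays per group limit this precision. All 36 members lay above the median level of the genes on the array. Each gene has its own probes, so such ranks of level are a rough guide, and no test sets the level of 1 gene against another.

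The labelled cell type was checked on marker genes. The summed log2 level of *Cd3e*, *Cd3d*, *Cd8a* and *Cd8b1* was 45.41 to 46.22 in fresh, 45.36 to 46.24 in AML-conditioned and 45.48 to 46.40 in DC-conditioned medium, with 0 of the 4 called. The 5 markers of macrophages and monocytes and the 5 of dendritic cells all lay under the median level of the array, as did 3 of 5 for myeloid leukaemia cells, 3 of 4 for B cells and 4 of 5 for reticular cells, with 0 called in any comparison. The 3 CD4 T cell markers, of which only 1 lay under the median level, summed to 18.07 to 19.67 in fresh, 19.17 to 20.97 in AML-conditioned and 18.52 to 20.26 in DC-conditioned medium. All 3 were higher in AML-conditioned than in fresh medium at an unadjusted p under 0.05 in the limma fit, with a median of 0.31. Of them *Cd4* was called and rose by 0.79 (SE 0.18, adjusted p = 0.015). The 4 NK cell markers summed to 19.92 to 20.98, 20.52 to 22.56 and 19.63 to 21.37 in the same order, and 2 of the 4 lay under the median level of the array. Against fresh medium 2 of the 4 were higher in AML-conditioned medium at an unadjusted p under 0.05. There *Eomes*, which activated CD8+ cells also make, was called and rose by 0.71 (SE 0.14, adjusted p = 0.00844). Against DC-conditioned medium *Eomes* rose by 0.79 (SE 0.14, adjusted p = 0.00457), and all 3 CD4 markers were higher at an unadjusted p under 0.05, with a median of 0.35 and 0 called. The cells had been purified for CD8 by MACS. In the pooled RNA of such a fraction, a change in the kinds of cells and a change in the RNA of each cell cannot be told apart, and the part of these markers in the members' values was not tested.

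In AML-conditioned against fresh medium, the first comparison, most members had higher mean levels with leukaemia supernatant, and no member passed the test. Of the 36, 34 had a positive difference (94.4%, against 45.6% of all genes), and the median difference was 0.24, against -0.01 over all genes. The limma fit called 0 members, 0 higher and 0 lower, where 1.3% of all genes were called higher and 1.48% lower. At an unadjusted p under 0.05, 13 members were higher (36.1%, where 7.11% of all genes were) and 1 was lower (where 8.78% were). The members varied together from array to array, so these counts are not counts of independent genes. They also come from a list chosen with earlier results of these data known.

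*Myc* itself had log2 levels of 10.81, 11.12 and 11.59 (lowest, median and highest) in fresh medium, 11.36, 11.64 and 11.83 in AML-conditioned medium, and 10.91, 11.14 and 11.55 in DC-conditioned medium. Of the 7 AML arrays 4 lay above every fresh array, and the same number lay above every DC array, with the remaining 3 inside those ranges. The difference between AML-conditioned and fresh medium was 0.40 (SE 0.11, 1.32-fold), with an adjusted p of 0.0573 that missed the threshold. The difference was 0.42 within replicates 1 to 3 and 0.38 within replicates 4 to 7. Without fresh replicate 6, fresh replicate 7 or AML replicate 6 it was 0.44, 0.47 and 0.43 and passed the threshold (adjusted p = 0.0448, 0.0243 and 0.0365). For *Myc*, fresh replicates 6 and 7 were the highest fresh arrays and AML replicate 6 was the lowest AML array. Leaving any of them out could only raise the difference, and no other fit that left out 1 array called *Myc*.

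The polymerase I group held *Polr1a* and *Polr1b*, core subunits of the enzyme, *Tcof1*, the polymerase I cofactor treacle, and *Mybbp1a*, a nucleolar MYB-binding protein. Their median difference was 0.30 and 0 of 4 were called. *Polr1b* had levels of 6.70, 7.17 and 7.68 in fresh medium and 7.26, 7.57 and 8.53 in AML-conditioned medium, a difference of 0.56 (SE 0.22, adjusted p = 0.196). Here 3 AML arrays lay above all fresh arrays and the other 4 overlapped with them. *Polr1a* differed by 0.36 (SE 0.17), *Tcof1* by 0.24 (SE 0.11), and *Mybbp1a*, at 8.55 ± 0.27 in fresh medium (SD, n = 7), by 0.03 (SE 0.18).

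The small subunit processome begins with the transcription-coupled UTP proteins, which load on the nascent precursor. All 4 of them had positive differences: *Utp4* 0.21, *Wdr43* 0.25, *Wdr75* 0.24 and *Heatr1* 0.41, with 0 called. Their fresh-medium levels included 9.65 ± 0.18 for *Wdr43* and 7.98 ± 0.33 for *Wdr75* (SD, n = 7). Later small subunit factors had differences between 0.15 (*Rrp12*, a protein of late maturation and export, at 6.49 ± 0.22 in fresh medium) and 0.32 (*Rcl1*, a factor of precursor cleavage), with *Utp20*, *Bysl* and *Noc4l* between them. None of these 5 was called, and 0 of 5 had an unadjusted p under 0.05.

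The 2 classes of snoRNP guide methylation and pseudouridylation of the precursor. Of the box C/D proteins, the core protein *Nop58* differed by 0.37 and the U3-associated *Rrp9*, at 7.79 ± 0.22 in fresh medium (SD, n = 7), by 0.36 (SE 0.12, adjusted p = 0.0947). The methyltransferase *Fbl* differed by 0.02 and had levels of 10.31 ± 0.22 in fresh and 10.33 ± 0.21 in AML-conditioned medium (SD, n = 7). In the box H/ACA group *Dkc1*, the pseudouridine synthase, had levels of 6.72, 7.39 and 7.98 in fresh and 7.56, 7.84 and 8.90 in AML-conditioned medium, a difference of 0.65 (SE 0.23, adjusted p = 0.124), and 3 AML arrays lay above the fresh range. Its partner *Gar1* differed by 0.10, and *Nhp2*, at 9.44 ± 0.22 in fresh medium (SD, n = 7), by 0.07. Whether the partners differed from each other in their response was not tested.

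Among the 12 large subunit factors the median difference was 0.19, 0 were called, and 3 had an unadjusted p under 0.05 on the higher side (*Bop1*, *Rrp1b* and *Noc3l*) and 1 on the lower side (*Wdr12*). *Bop1*, *Pes1* and *Wdr12* form the PeBoW complex, which is needed to mature the large subunit. *Bop1* had a difference of 0.36 (SE 0.15) and a fresh level of 5.57 ± 0.31 (SD, n = 7). *Pes1* had levels of 9.27, 9.48 and 9.71 in fresh and 9.29, 9.48 and 9.76 in AML-conditioned medium, a difference of 0.02 (SE 0.10, adjusted p = 0.965) with overlapping groups. *Wdr12* had levels of 8.72, 8.96 and 9.12 in fresh and 8.67, 8.74 and 8.98 in AML-conditioned medium, a difference of -0.18 (SE 0.07, adjusted p = 0.223), with 3 AML arrays below all fresh arrays. The other 9 differed by 0.07 (*Rrs1*) to 0.33 (*Rrp1b*, SE 0.11, adjusted p = 0.0899), among them the rRNA methyltransferases *Nop2* (0.29) and *Ftsj3* (0.24) and the assembly factors *Nop16* (0.26), *Noc3l* (0.30), *Ppan* (0.14), *Noc2l* (0.08) and *Nip7* (0.08).

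Of the 4 abundant nucleolar proteins 0 were called. *Nolc1*, a chaperone of snoRNPs, had levels of 6.37, 6.57 and 7.11 in fresh and 6.99, 7.19 and 8.0 in AML-conditioned medium, and 5 of 7 AML arrays lay above every fresh array. Its difference of 0.68 (SE 0.20, 1.6-fold, adjusted p = 0.0607) was the largest of the 36. It passed the threshold without fresh replicate 7 (0.75, adjusted p = 0.0463) and without DC replicate 1, which enters only the shared spread (adjusted p = 0.0435). Fresh replicate 7 was the highest fresh array for *Nolc1*, and no other fit that left out 1 array called this gene. The RNA helicase *Ddx21* differed by 0.40 (SE 0.15) and nucleolin, *Ncl*, by 0.13. Nucleophosmin, *Npm1*, had levels of 11.23, 11.53 and 11.56 in fresh and 11.24, 11.40 and 11.49 in AML-conditioned medium, a difference of -0.07 (SE 0.06, adjusted p = 0.667) inside overlapping groups.

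**Figure D1:**
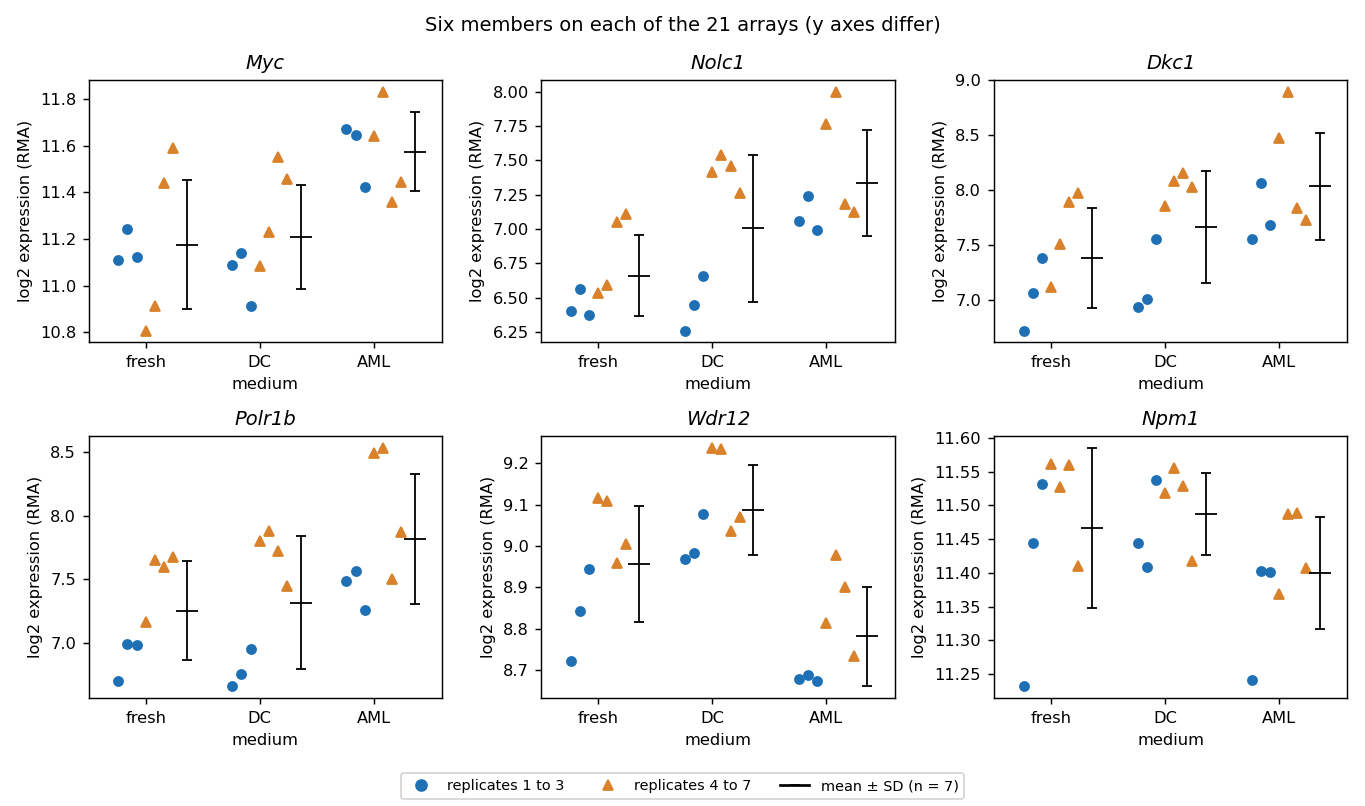
Log2 expression (y axes, which differ between panels) of *Myc*, *Nolc1*, *Dkc1*, *Polr1b*, *Wdr12* and *Npm1* on each array of fresh, DC-conditioned and AML-conditioned medium; circles are replicates 1 to 3, triangles replicates 4 to 7, and bars the mean ± SD of 7 arrays. In the *Myc* panel 4 AML arrays lie above all fresh and all DC arrays, and in the *Wdr12* panel 6 AML arrays lie below all DC arrays.

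In DC-conditioned against fresh medium, the second comparison, the members' differences lay nearer to 0 and no gene passed the test. The limma fit called 0 of 36, where 0% of all genes were called in either direction. At an unadjusted p under 0.05, 0 members were higher (2.13% of all genes were) and 0 lower (4.29% were). The median difference was 0.07, against -0.01 over all genes, and 31 members had a positive difference (86.1%, against 45.2% of all genes). Leaving out 1 array moved the median to between 0.03 (without fresh replicate 3) and 0.12 (without DC replicate 1), and the positive count to between 22 (without DC replicate 4) and 34 (without DC replicate 1). *Myc* differed by 0.03 (SE 0.11, adjusted p = 0.979).

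The 3 members with the highest differences were *Nolc1*, *Dkc1* and *Heatr1*. *Nolc1* had DC levels of 6.26, 7.26 and 7.54, a difference of 0.35 (SE 0.20, adjusted p = 0.828), with 4 DC arrays above and 1 below every fresh array. *Dkc1* had DC levels of 6.94, 7.86 and 8.16, a difference of 0.28 (SE 0.23, adjusted p = 0.891). *Heatr1* had levels of 7.86, 8.21 and 8.68 in fresh and 7.98, 8.80 and 8.87 in DC-conditioned medium, a difference of 0.22 (SE 0.18, adjusted p = 0.896), with 4 DC arrays above all fresh arrays. In these 3 genes the DC arrays spread to both sides of the fresh median.

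The 3 with the lowest differences were *Noc4l*, *Mybbp1a* and *Rrs1*. *Noc4l*, a factor of small subunit assembly, had levels of 7.95, 8.20 and 8.47 in fresh and 7.72, 8.25 and 8.43 in DC-conditioned medium, a difference of -0.08 (SE 0.13, adjusted p = 0.962). *Mybbp1a* had levels of 8.23, 8.48 and 9.01 in fresh and 7.91, 8.77 and 8.95 in DC-conditioned medium, a difference of -0.07 (SE 0.18, adjusted p = 0.974). In both genes 3 DC arrays lay below every fresh array while the DC median lay above the fresh median. *Rrs1*, which helps to bring the 5S particle into the large subunit, had levels of 7.32, 7.62 and 7.74 in fresh and 7.08, 7.50 and 7.86 in DC-conditioned medium, a difference of -0.05 (SE 0.11, adjusted p = 0.966).

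In AML-conditioned against DC-conditioned medium, 1 member passed the test, and it was lower. *Wdr12*, the WD-repeat subunit of PeBoW, had levels of 8.67, 8.74 and 8.98 in AML-conditioned and 8.97, 9.07 and 9.24 in DC-conditioned medium, and 6 of the 7 AML arrays lay below every DC array. It fell by 0.31 on the log2 scale (SE 0.07, 0.81-fold, adjusted p = 0.0239). The difference was -0.33 within replicates 1 to 3 and -0.29 within replicates 4 to 7, and neither set alone kept the call (adjusted p = 0.125 and 0.14). The call was also lost with arrays centred on their medians and without AML replicate 1, AML replicate 3, DC replicate 4 or DC replicate 5 (adjusted p between 0.0502 and 0.0608). Over all 33 alternatives the difference lay between -0.35 and -0.28.

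The count of members called in this comparison was thus 0 higher, where 1.13% of all genes were, and 1 lower, where 1.26% were. At such shares, 1 call among 36 does not set the members apart. At an unadjusted p under 0.05, 6 members were higher, where 6.82% of all genes were, and 1 was lower, where 7.44% were. The 6 were *Myc* (0.36, SE 0.11, adjusted p = 0.0954), *Polr1b* (0.50), *Ddx21* (0.34), *Noc4l* (0.32), *Rrp1b* (0.27) and *Ppan* (0.19). The median of the members was 0.17, against 0.01 over all genes, and 31 of 36 differences were positive (86.1%, against 51.9% of all genes). The median was 0.09 with 27 positive without AML replicate 5, and 0.10 with 28 positive without DC replicate 1. Over all genes the median was 0.01 in both fits. In the members' mean, AML replicate 5 was the highest AML array and DC replicate 1 the lowest DC array. Leaving out either could only lower the mean difference of the members. Both AML comparisons use the same AML arrays, and the comparisons with fresh medium share the fresh arrays, so the 3 sets of values are not independent of one another.

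**Figure D2:**
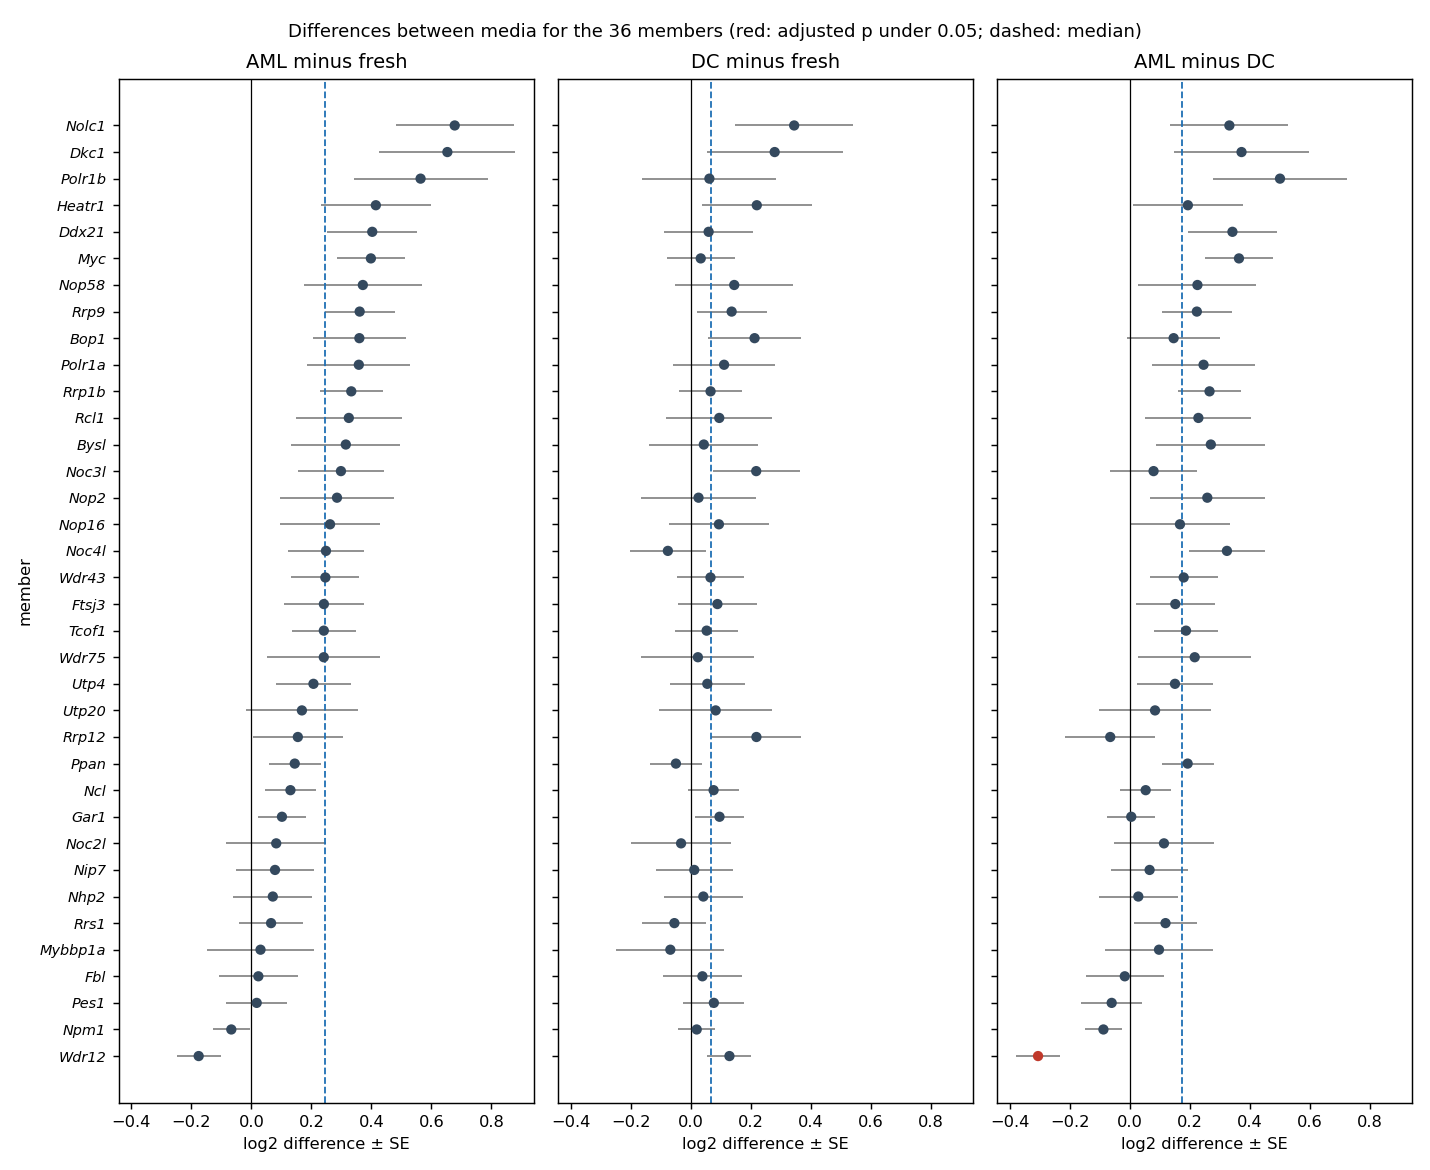
Log2 differences between media (x axis, with standard error bars) for the 36 members (y axis, ordered by AML minus fresh) in 3 panels; the dashed line is the median of the members and red marks an adjusted p under 0.05. The median line stands at 0.24 for AML minus fresh, 0.07 for DC minus fresh and 0.17 for AML minus DC, and *Wdr12* at -0.31 is the 1 red point.

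The spread among arrays of the same medium was as large as the differences between media. The mean of the 36 members on an array, relative to the fresh-medium mean, was -0.20, -0.10 and 0.29 in fresh medium (lowest, median and highest), -0.03, 0.13 and 0.69 in AML-conditioned medium, and -0.31, 0.28 and 0.35 in DC-conditioned medium. The group means were 0.24 ± 0.27 for AML-conditioned and 0.08 ± 0.31 for DC-conditioned medium, beside an SD of 0.20 in fresh medium (n = 7 each). The 3 groups overlapped, and AML replicates 4 and 5 stood above the other 19 arrays.

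**Figure D3:**
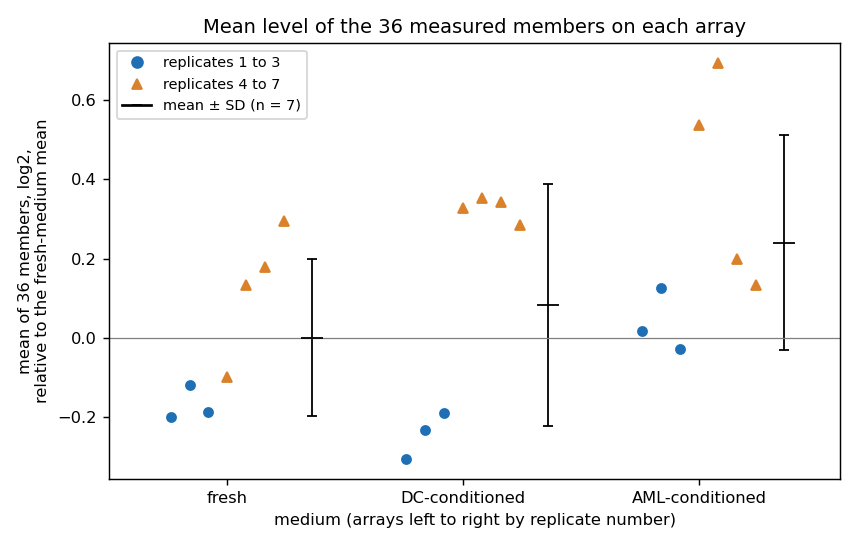
Mean log2 level of the 36 members on each array relative to the fresh-medium mean (y axis) by medium (x axis); circles are replicates 1 to 3, triangles replicates 4 to 7, and bars the mean ± SD of 7 arrays. AML replicates 4 and 5, at 0.54 and 0.69, are the 2 highest points, and DC replicates 1 to 3, between -0.31 and -0.19, all lie below DC replicates 4 to 7.

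Leaving out these 2 AML arrays lowered the AML difference. They are the highest arrays in the members' mean, so leaving them out could only lower that mean. Replicate 5 was the highest of all 21 arrays in 27 of the 36 members and replicate 4 in 4 of them, and both stood above the other 19 arrays in 23 members. No such count was made over all genes, so these counts do not set the members apart. Without both, the median difference between AML-conditioned and fresh medium was 0.07, against -0.01 over all genes. In that fit 25 members had a positive difference and 0 were called. Of all genes, 0.282% were called higher and 0.287% lower in that fit, against 1.3% and 1.48% with all 21 arrays. In that fit *Myc* differed by 0.33 (SE 0.12, adjusted p = 0.296), *Nolc1* by 0.46 (SE 0.19, adjusted p = 0.382) and *Dkc1* by 0.39 (SE 0.22, adjusted p = 0.558). Without AML replicate 5 alone the median was 0.16, against -0.01 over all genes, with 30 members positive. Against DC-conditioned medium the median without both was 0.02, against 0.003 over all genes, with 20 members positive. There *Wdr12* kept its call in the limma fit at -0.35 (adjusted p = 0.0411).

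A second split followed the replicate numbers. Replicates 4 to 7 had a higher mean than replicates 1 to 3 in 33 of 36 members in fresh, 35 in AML-conditioned and 36 in DC-conditioned medium. The median of this gap over the members was 0.29, 0.40 and 0.56, while over all genes it was -0.02, 0.00 and -0.02. In DC-conditioned medium all 4 arrays of replicates 4 to 7 lay above all 3 of replicates 1 to 3 in 30 members, against 11 in fresh and 10 in AML-conditioned medium. The same counts were not made over all genes, so they do not set the members apart from other genes. *Myc* took little part in it in fresh medium (0.03) and in AML-conditioned medium (-0.01), and had a gap of 0.28 in DC-conditioned medium. The labels name no batch that sets these replicates apart, and the source of the gap was not tested.

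**Figure D4:**
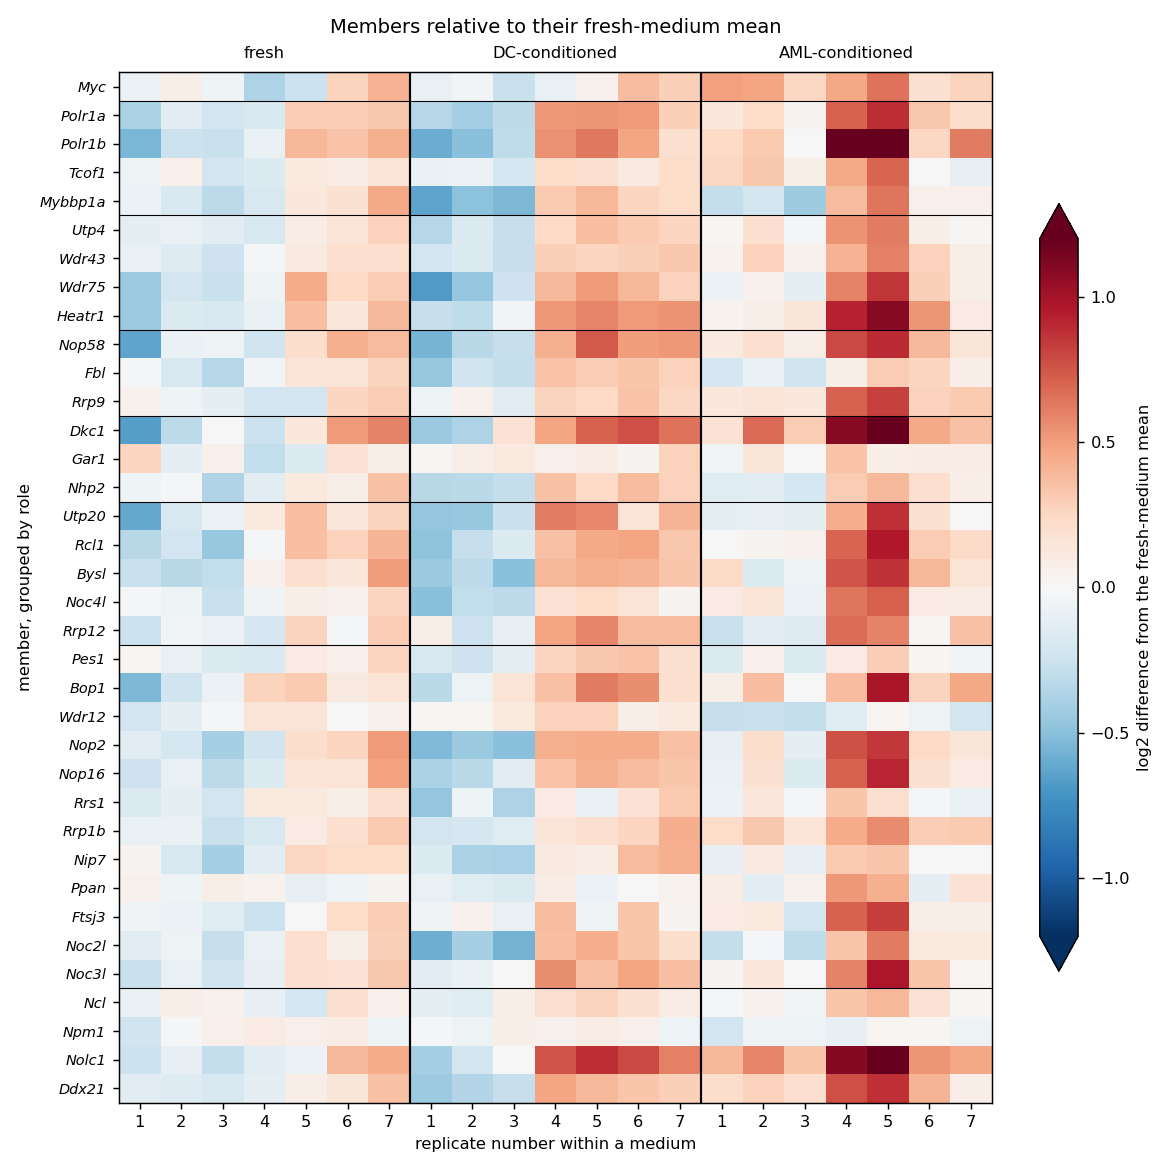
Log2 difference of each member (y axis, grouped by role with lines between groups) from its fresh-medium mean on each of the 21 arrays (x axis, replicate number within a medium); red is higher, blue lower, and the scale ends at 1.2 in either direction. In DC-conditioned medium the mean of replicates 4 to 7 is above that of replicates 1 to 3 for 36 of 36 members. All 4 of these arrays lie above all 3 of the others in 30 members. AML replicates 4 and 5 hold the deepest red, and *Wdr12* stays pale to blue on the AML arrays.

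Within these sets the comparisons came out as follows. For AML-conditioned against fresh medium the members had a median of 0.19 in the first set, replicates 1 to 3, and of 0.30 in the second, replicates 4 to 7. In the first set limma called 2 members higher, *Polr1b* (0.55, adjusted p = 0.0476) and *Nolc1* (0.65, adjusted p = 0.0193), where 1.13% of all genes were called higher, and in the second it called 0, where 0.0666% were. For DC-conditioned against fresh medium the first set had a median of -0.10 with 11 members positive, and the second set 0.19 with 34 positive, and 0 members were called in either set. For AML-conditioned against DC-conditioned medium it was 0.30 and 0.07. There 6 members were called higher in replicates 1 to 3, where 1.05% of all genes were: *Myc* (0.53, adjusted p = 0.0265), *Polr1b* (0.65), *Nolc1* (0.64), *Polr1a* (0.48), *Ddx21* (0.58) and *Rrp1b* (0.42). In replicates 4 to 7 *Myc* differed by 0.24, *Nolc1* by 0.10, and 0 members were called, where 0.108% of all genes were called higher. Over all genes the median difference within a set lay between -0.02 and 0.01 in these comparisons. The share of all genes with a positive difference was not counted there, and the difference between the sets was not tested.

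**Figure D5:**
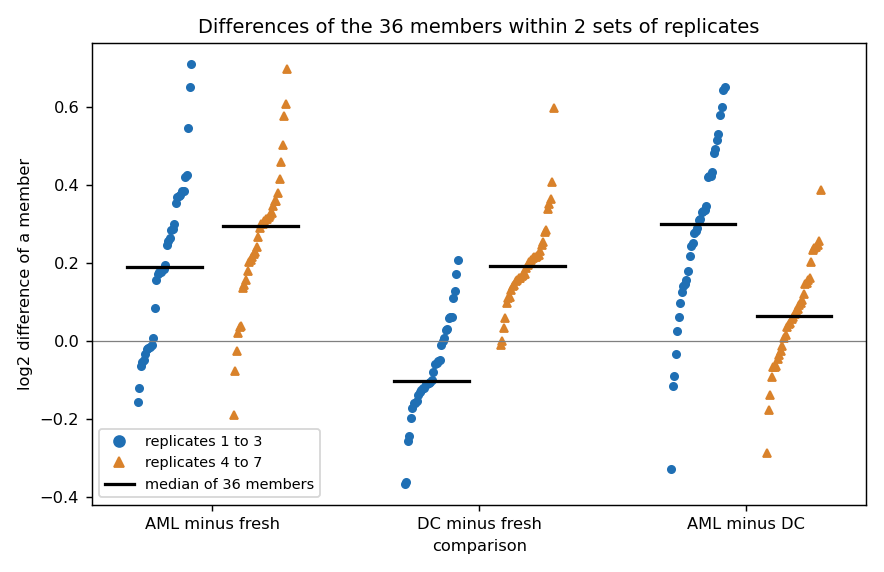
Log2 differences of the 36 members (y axis) for the 3 comparisons (x axis), computed within replicates 1 to 3 (circles) and within replicates 4 to 7 (triangles), sorted within each set; black lines are medians. The medians are 0.19 and 0.30 for AML minus fresh, -0.10 and 0.19 for DC minus fresh, and 0.30 and 0.07 for AML minus DC.

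With the 2 sets as a block in the limma fit, 11 members were called higher in AML-conditioned than in fresh medium, where 2.71% of all genes were called higher. They were *Myc* (adjusted p = 0.0382), *Polr1a*, *Polr1b*, *Heatr1*, *Rrp9*, *Dkc1*, *Rcl1*, *Bop1*, *Rrp1b*, *Nolc1* (adjusted p = 0.00559) and *Ddx21*, and every role group holds at least 1 of them. Against DC-conditioned medium the block gave 1 member higher, *Polr1b* (0.50, adjusted p = 0.0299), where 1.94% of all genes were. It also gave 1 member lower, *Wdr12* (adjusted p = 0.00416), where 2.15% of all genes were. The differences themselves are those of the fit without the block, and the block took the gap between the sets out of the spread. The labels do not give this split, and the gap that it removes was seen in the members' own values. The calls with this block are thus no independent support for a difference.

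The other genes of these pathways were read from lists that hold none of the members. Of all genes, 1.3% were called higher and 1.48% lower in AML-conditioned than in fresh medium. Against DC-conditioned medium the shares were 1.13% and 1.26%. Of 12 MYC family members and partners, 1 was called: *Mxi1*, a MAX-binding antagonist of MYC, had levels of 8.26, 8.42 and 8.57 in fresh, 6.50, 7.48 and 8.16 in AML-conditioned and 7.85, 8.34 and 8.58 in DC-conditioned medium. All 7 AML arrays lay below every fresh array. It fell by 0.97 against fresh medium (SE 0.19, adjusted p = 0.00573) and by 0.87 against DC-conditioned medium (adjusted p = 0.0127). Without AML replicates 4 and 5 the difference was -0.64 against fresh medium (adjusted p = 0.0162) and -0.54 against DC-conditioned medium (adjusted p = 0.0521). Neither call was kept in replicates 4 to 7 only (adjusted p = 0.127 and 0.109), and that against DC-conditioned medium was lost with the 2 groups fitted alone (adjusted p = 0.0505).

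Of 36 other MYC targets, *Slc1a5*, a glutamine transporter, rose by 0.50 in AML-conditioned against fresh medium (SE 0.10, adjusted p = 0.0107), with 6 AML arrays above all fresh arrays. *Hk2*, a hexokinase, fell by 0.77 against DC-conditioned medium (SE 0.20, adjusted p = 0.0415). The median of the 36 was 0.04 against fresh medium. Without AML replicates 4 and 5, *Slc1a5* differed by 0.35 (adjusted p = 0.0807) and *Hk2* by -0.71 (adjusted p = 0.219). The call of *Hk2* was also lost when any 1 of AML replicates 1 to 5, DC replicates 4 to 7 or fresh replicates 2 and 6 was left out (adjusted p between 0.0506 and 0.0999). Within replicates 1 to 3, within replicates 4 to 7, with trend and robust estimation and with the 2 groups fitted alone it had adjusted p = 0.057, 0.0824, 0.0699 and 0.092. *Slc1a5* lost its call in replicates 4 to 7 only (adjusted p = 0.132).

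Calls in the remaining machinery stand beside 1.3% of all genes called higher and 1.48% lower against fresh medium, and 1.13% and 1.26% against DC-conditioned medium. At such shares, 0 calls in a list of 12 or 44 genes do not set that list apart. The limma fit called 0 of 12 other polymerase I factors, 0 of 44 other small subunit processome proteins and 0 of 44 other large subunit factors in any comparison. At an unadjusted p under 0.05 these lists had 0, 8 and 6 genes higher in AML-conditioned than in fresh medium (0%, 18.2% and 13.6%, where 7.11% of all genes were), with medians of 0.03, 0.09 and 0.10. Of 12 further snoRNP assembly factors *Naf1*, which helps to build H/ACA particles, rose by 0.61 (SE 0.16, adjusted p = 0.0402), with 4 AML arrays above all fresh arrays. Of 13 exosome genes *Exosc8* fell by 0.35 against DC-conditioned medium (SE 0.10, adjusted p = 0.0475). Without AML replicates 4 and 5 neither kept its call, at 0.46 (adjusted p = 0.278) for *Naf1* and -0.23 (adjusted p = 0.357) for *Exosc8*. The call of *Naf1* was also lost without any 1 of fresh replicates 1 to 4 or AML replicates 2, 4 and 5 (adjusted p between 0.0583 and 0.115), within either set of replicates (0.0673 and 0.169), with trend and robust estimation (0.0505), with array weights (0.102) and with the 2 groups fitted alone (0.0512). That of *Exosc8* was lost without any 1 of DC replicates 2 and 4 to 7, fresh replicates 2 to 7 or AML replicates 1, 3, 4 and 5 (adjusted p between 0.0523 and 0.138), within either set of replicates (0.487 and 0.125), with centred arrays (0.0516) and with the 2 groups fitted alone (0.11).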

How the data were processed

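Biotin-labelled cDNA of 21 samples (WT Pico kit, Affymetrix) was measured on 1-colour arrays. Each deposited value is a log2 expression level of a transcript cluster, which the authors obtained by RMA with oligo in R; these tools are named in the submitters' processing notes, without versions. RMA removes background, applies quantile normalization and condenses probes into 1 value, so detection on a single array was not assessed and differences of low genes are compressed. Of 22203 transcript clusters, 19572 had 1 gene symbol, 0 had several and 2631 had none. Where a symbol had several rows (55 symbols), the row of highest mean was kept. This left 19505 genes, and each measured member had 1 row.

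Testing used limma 3.58.1 in R 4.3.3 (lmFit and eBayes, two-sided) over all genes and all 21 arrays without covariates, with Benjamini-Hochberg adjustment over all genes of a comparison. The code was tested on simulated data. Groups share 1 estimate of the spread per gene. The labels call the arrays biological replicates and name no animal for any of them; where the samples are not separate animals, p-values measure only the spread between samples. No arrays held identical values.

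Members and gene lists were chosen with earlier results of these data known. Every member is accounted for. Array values are given as lowest, median and highest for *Myc*, for called members and, where a comparison called none, for the 3 highest and 3 lowest differences. The members with the highest and lowest mean level of a role group are named with their levels. Genes outside the members were named only where called, apart from the markers of CD8+ T cells. Of the listed pathway genes, *Taf1d*, *Ebna1bp2* and *Exosc6* are not analysed here. Alternatives covered blocks for replicates, sets of replicates, normalization, filters, array weights and leaving out each array.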

Additional observations from a re-analysis of the deposited data

Results flagged for a closer look

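Among 111 checks of 7 arrays of a medium for a single far value, 1 stood out, where chance gives about 5%. *Gar1*, a core protein of H/ACA particles, had a log2 level of 9.206 on DC replicate 7, above the next DC array at 9.042. The gap was 0.624 of the range of the group, above the limit of 0.568.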

How the results depend on the processing

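Of 33 alternatives, 21 left out 1 array each and 12 changed another choice. In AML-conditioned against fresh medium the count of members called, 0, became 8 with the replicate block, 11 with the block for the 2 sets of replicates, 2 in replicates 1 to 3 only, and 1 each with quantile normalization once more (*Nolc1*), arrays centred on their medians (*Myc*), the genes under the 25th percentile of mean level left out (*Myc*) or the 2 groups fitted alone (*Nolc1*). Leaving out 1 array gave 0 to 2. Of all genes, 1.3% were called higher without an alternative, and in the same order 2.67%, 2.71%, 1.13%, 1.53%, 1.48%, 2.09% and 0.584%. In AML-conditioned against DC-conditioned medium the count of 1 became 2 with either block, 6 in replicates 1 to 3 only, 0 in replicates 4 to 7 only and 0 with centred arrays. Leaving out 1 array there gave 0 to 1. Of all genes, 1.13% were called higher and 1.26% lower without an alternative. With the replicate block these shares were 1.92% and 2.1%, and with the block for the 2 sets 1.94% and 2.15%. They were 1.05% and 0.579% in replicates 1 to 3, 0.108% and 0.113% in replicates 4 to 7, and 0.897% and 1.24% with centred arrays. In DC-conditioned against fresh medium the count of members called was 0 under all 33. The causes of these changes were not tested. The members' median lay between 0.07 and 0.30, between -0.10 and 0.19, and between 0.02 and 0.30 for AML against fresh, DC against fresh and AML against DC.

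The labels do not say that a replicate number marks a shared mouse or day. Of 21 pairs of arrays with the same number, 13 had correlated deviations over 0.1 (-0.11 to 0.36, median 0.175). Of the 21 arrays, 7 correlated best with an array of their own number. The count that unpaired numbers would give was not worked out, so the 7 speaks neither for nor against pairs. The main fit took no pairs because the labels state none, and whether the numbers mark pairs was not tested. Over all genes, the replicate block raised the calls higher in AML-conditioned than in fresh medium from 253 to 521 and those lower from 288 to 491.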
